A study of Mus musculus with 16 samples.

Results

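The H3K4me1 landscape of CD8+ T cells was compared between cultures given the LSD1 inhibitor GSK2879552 (GSK) and cultures given vehicle (Veh). The members were all H3K4me1 peaks of both treatments, 34387 in Veh and 40272 in GSK, or 74659 of the 214352 peaks in the 12 peak lists of the series. The cells came from spleens of OT1 mice, in which nearly every T cell carries a transgenic receptor for an ovalbumin peptide, so both treatments share this receptor. Activation lasted 48 h, on plate-bound anti-CD3 with soluble anti-CD28 and IL-2, and was followed by 3 days of growth in IL-2. GSK at 0.5 μM, or vehicle, was in the medium during both steps. Each treatment was represented by 1 library per antibody, so there is no spread between replicates, and every value below is a description of these 2 lists with no test. The labels do not say how many mice each library came from, and the sex and age of the mice were not used here.

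H3K4me1 is laid down by KMT2C, KMT2D and related methyltransferases, and it marks enhancers and the flanks of active promoters, where H3K4me3 sits at the centre. LSD1 (KDM1A) works with the CoREST proteins and histone deacetylases and takes a methyl group off H3K4me2 and then off H3K4me1, so it sits on both sides of this mark. In activated CD8+ T cells, enhancers bearing H3K4me1 lie around the genes of cytokine receptors, transcription factors and effector molecules. GSK2879552 is an irreversible inhibitor that binds the flavin cofactor of LSD1. The paper reports that inhibition in the cells was released once the drug was taken out for the IL-2 step.

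A peak here is a broad region in which reads were enriched over input, with a fold enrichment (the ratio of ChIP signal to local background), a -log10 p and a -log10 q. A peak was called shared if it overlapped a peak of the other treatment by at least 1 bp, and Veh-only or GSK-only if it did not. The 5 sequences that follow are the central 300 bases of peaks to which the results return. They were taken from the plus strand of the GRCm38 (mm10) reference, in RefSeq's release, not from the reads. Mdga2 and Mir6546 name the nearest genes of the strongest GSK-only peaks, at chr12:67059265-67059564 and chr1:171073816-171074115. Sgk1 marks the strongest Veh-only peak whose centre held no exon, at chr10:21911788-21912087. The others are the strongest GSK-only peaks of Icos at chr1:60960697-60960996 and of Il15ra at chr2:11715473-11715772. Capitals mark matches on either strand to 7-letter motifs of ETS (AGGAAGT) and T-box (AGGTGTG) factors.
Mdga2: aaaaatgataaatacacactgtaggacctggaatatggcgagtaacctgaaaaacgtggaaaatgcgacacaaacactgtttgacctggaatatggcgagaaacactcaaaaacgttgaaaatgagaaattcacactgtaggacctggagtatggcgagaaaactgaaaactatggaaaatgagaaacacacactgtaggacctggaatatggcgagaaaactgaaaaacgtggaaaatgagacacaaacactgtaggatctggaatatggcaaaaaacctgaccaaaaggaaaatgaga
Mir6546: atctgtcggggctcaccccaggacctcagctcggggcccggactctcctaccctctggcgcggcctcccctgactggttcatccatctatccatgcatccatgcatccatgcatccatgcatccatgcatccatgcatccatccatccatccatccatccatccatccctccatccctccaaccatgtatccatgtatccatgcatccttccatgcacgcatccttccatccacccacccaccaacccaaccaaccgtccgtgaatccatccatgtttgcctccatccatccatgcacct
Sgk1: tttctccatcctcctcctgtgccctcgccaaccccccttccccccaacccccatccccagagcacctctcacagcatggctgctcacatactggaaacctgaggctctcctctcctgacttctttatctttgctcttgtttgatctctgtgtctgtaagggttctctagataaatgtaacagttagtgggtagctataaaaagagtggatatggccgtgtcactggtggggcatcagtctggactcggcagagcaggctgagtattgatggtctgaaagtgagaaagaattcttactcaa
Icos: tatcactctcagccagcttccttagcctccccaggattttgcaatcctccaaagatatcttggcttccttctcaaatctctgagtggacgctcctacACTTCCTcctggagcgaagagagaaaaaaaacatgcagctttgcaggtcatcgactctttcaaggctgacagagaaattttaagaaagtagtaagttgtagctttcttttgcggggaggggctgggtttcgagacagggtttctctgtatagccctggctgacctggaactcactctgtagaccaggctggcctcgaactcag
Il15ra: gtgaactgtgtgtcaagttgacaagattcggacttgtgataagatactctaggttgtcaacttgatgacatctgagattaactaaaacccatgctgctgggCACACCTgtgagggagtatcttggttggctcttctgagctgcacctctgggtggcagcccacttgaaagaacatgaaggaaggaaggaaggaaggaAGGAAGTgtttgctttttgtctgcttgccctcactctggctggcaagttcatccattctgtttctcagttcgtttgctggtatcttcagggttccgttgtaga
The Mdga2 window repeats one unit several times over, and 79.3% of its bases are marked as repeats in the reference. The Mir6546 window is a run of short tandem units, with 60.7% of its bases marked. The Sgk1 window is 16.3% repeat and holds none of the motifs. The Icos window holds 1 ETS match, and 35% of its bases are marked as repeats. The Il15ra window, with 39.3% marked, holds 1 ETS and 1 T-box match. Its ETS match lies at the end of a tandem run of ggaa.

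The label of the cells was first held against H3K4me3 at promoters, that is, within 1 kb of a transcription start site (TSS). All 7 genes looked at for CD8 T cells had an H3K4me3 peak at the promoter in both treatments. They were Cd8a and Cd8b1, and Cd3e, Cd3d, Cd3g, Lck and Cd5, which are not particular to CD8 T cells. Of the 3 genes of CD4 T cells, Cd4 and Foxp3 had none and Zbtb7b had one in both treatments. Of the B cell genes, Ms4a1, Cd79a and Pax5 had no H3K4me3 peak, while Cd79b and Ebf1 had one in both treatments. Of the 6 myeloid genes, Lyz2, Csf1r, Itgam and Adgre1 had none, Cd14 had one in both and Spi1 in Veh alone. Neither NK cell gene had one, and of the erythroid genes Klf1 had one in both and Gata1 in neither.

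The GSK list was the longer one and covered more of the genome. GSK peaks covered 41.2 Mb and Veh peaks 34.1 Mb, a ratio of 1.21. The bases in common came to 27.1 Mb, which was 79.5% of the Veh bases and 65.8% of the GSK bases. Of the 14.1 Mb covered in GSK alone, 5.85 Mb lay in GSK-only peaks and 8.24 Mb in the extended parts of shared peaks. Of the 6.99 Mb covered in Veh alone, 2.23 Mb lay in Veh-only peaks and 4.76 Mb in shared peaks. Net of the bases in Veh alone, GSK covered 3.48 Mb more in shared peaks and 3.62 Mb more in peaks of 1 list.

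The peaks of both lists were alike in shape and in strength. The median width was 822 bp in Veh, with an interquartile range of 481 to 1324 bp, and 842 bp in GSK, with a range of 489 to 1375 bp. The widest peaks were 6630 bp in Veh and 5916 bp in GSK. The median fold enrichment was 4 in Veh and 3.84 in GSK, while the median -log10 p was 8.09 in Veh and 8.22 in GSK. The weakest peaks had a -log10 q of 3.01 in both lists. The study lists more unique read pairs for the GSK than for the Veh H3K4me1 library. It also describes drawing equal read numbers at random to compare signals, but not whether peaks were called on these reads. The -log10 p of a peak rises with reads, so depth and treatment cannot be told apart in the length of the lists.

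Most peaks were found in both treatments. Of the Veh peaks, 30206, or 87.8% (95% Wilson interval 87.5 to 88.2), were overlapped by a GSK peak, and 4181 were Veh-only, which is 12.2% of the Veh list. Of the GSK peaks, 9997 were GSK-only, or 24.8% of the GSK list (24.4 to 25.3). GSK-only peaks thus outnumbered Veh-only peaks 2.39 to 1. When the GSK list was cut to the length of the Veh list by -log10 p, 6585 peaks were GSK-only and 6604 were Veh-only. Lists of equal length must give near-equal numbers when nearly all shared peaks pair one to one, so the excess and the list length are one measurement. The intervals count peaks and cover counting error only, not the spread between cultures.

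Peaks that stood in 1 list were the weak and narrow ones. The median width was 463 bp for GSK-only peaks against 1025 bp for shared GSK peaks, and 424 bp for Veh-only peaks against 898 bp for shared Veh peaks. The median -log10 p was 6.67 for GSK-only peaks and 8.91 for shared GSK peaks, and it was 6.51 for Veh-only peaks and 8.37 for shared Veh peaks. Fold enrichment hardly differed, with a median of 3.85 for GSK-only peaks and 3.84 for shared GSK peaks. Among GSK peaks with a -log10 p from 5 to 6, 60.5% (59.0 to 61.9) were GSK-only. Among those from 15 to 30 it was 1.91% (1.44 to 2.53). In the Veh list the share went from 36.1% (34.5 to 37.7) to 0.184% (0.0626 to 0.540). At each strength the GSK-only share was the higher one, up to a -log10 p of 30. At 30 and over all 29 Veh peaks and all 85 GSK peaks were shared.

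**Figure D1:**
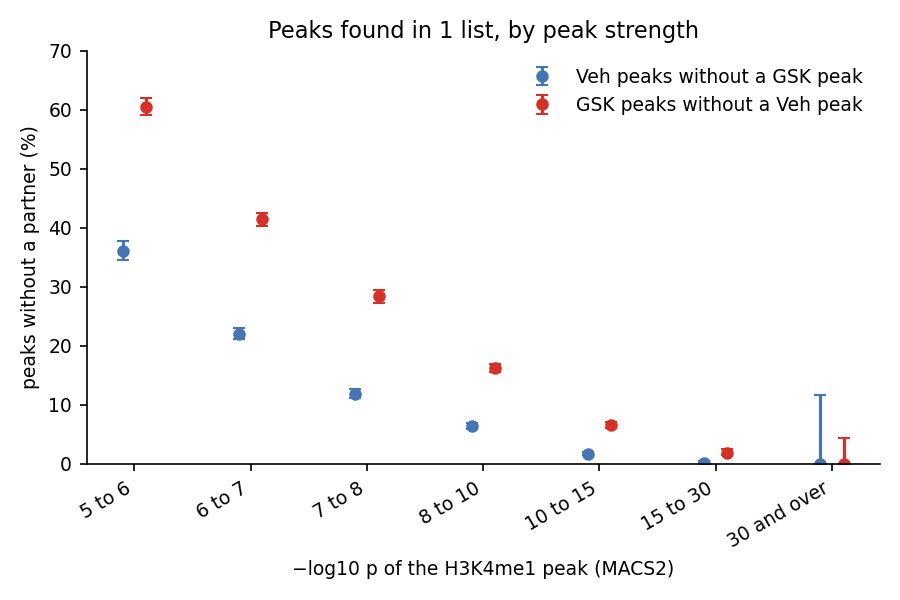
Share of H3K4me1 peaks without a partner in the other list (vertical axis, percent) by the peak's -log10 p (horizontal axis), for Veh peaks in blue and GSK peaks in red, with 95% Wilson intervals that cover counting error only. The share was 60.5% in GSK and 36.1% in Veh in the weakest class, 1.91% and 0.184% from 15 to 30, and 0 in the strongest class.

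Repeats were more frequent in GSK-only peaks, and most frequent in the strongest of them. In all GSK-only windows of 300 bases, 24.9% of the bases were marked as repeats, against 19.9% in shared GSK peaks, 21.6% in Veh-only peaks and 19.3% in shared Veh peaks. The share of windows with at least 50% repeat was 14.1% (13.2 to 15) in GSK-only peaks with a -log10 p of 5 to 7. It was 19.8% (18.5 to 21.1) from 7 to 10 and 26.2% (22.8 to 29.8) from 10 to 15. At 15 and over, 16 of 47 GSK-only peaks, or 34.0% (22.2 to 48.3), were such windows. In shared GSK peaks the same share went from 11.3% (10.6 to 12.1) in the weakest class to 12.7% (11.5 to 14.1) in the strongest. In Veh-only peaks it was 12.1% (10.9 to 13.4) from 5 to 7 and 14.8% (9.71 to 22.0) from 10 to 15. At 15 and over there were only 3 Veh-only peaks, none of them such a window. The part of repeats in these peaks was not tested.

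Several of the strongest peaks of 1 list carried such sequence. The GSK-only peak with the highest -log10 p, 29.3, was 415 bp wide with 7.11-fold enrichment (chr12:67059208-67059622). It lay in an intron 163 kb from the TSS of its nearest gene, Mdga2, and 1799 kb from the closest Veh H3K4me1 peak, and it was overlapped by LSD1, H3K4me3, H3K27ac and RNA polymerase II peaks of both treatments and by H3K4me2 in Veh. The peak near Mir6546 (chr1:171073663-171074269) reached a -log10 p of 28.5 with 3.93-fold enrichment, and LSD1 peaks of both treatments overlapped it. The GSK-only peak 36.3 kb from the TSS of Ccr1, an inflammatory chemokine receptor, reached a -log10 p of 22.7 with 2.81-fold enrichment. No peak of another antibody overlapped it, and 11% of its window was repeat. The others among the 5 strongest lay near Psd2, with a fold of 7.36, and Gm30214, with a fold of 8.10. Even the strongest of these held only rank 101 among all GSK peaks by -log10 p.

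The strongest Veh-only peaks were weaker. The peak at the promoter of Atrnl1, which encodes the attractin-like membrane protein, reached a -log10 p of 17.2 with 6.83-fold enrichment (chr19:57611527-57611898). H3K4me2 and H3K4me3 peaks of both treatments overlapped it. The peak in an intron of Sgk1, a kinase of the PI3K pathway, reached a -log10 p of 16.7 with 3.76-fold enrichment, and no peak of another antibody overlapped it (chr10:21911736-21912139). The remaining ones lay near 1700016G22Rik and Fam133b and at the promoter of Gtse1, with -log10 p of 15.8, 14.8 and 14.3.

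Shared peaks were on the whole a little wider with GSK. Of the shared peaks, 29440 paired one to one, and their median width was 894 bp in Veh and 1025 bp in GSK. The median difference within pairs, GSK minus Veh, was 75 bp, with an interquartile range of -81 to 286 bp. The GSK peak was the wider one in 63.0% of pairs (62.5 to 63.6). Width at least doubled in 2873 pairs, or 9.76%, and at least halved in 1316 pairs, or 4.47%. The median difference was 77 bp when the GSK list was cut to the Veh length. As with the number of peaks, the width, fold and -log10 p of a pair cannot be told apart from the depth of the libraries.

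Over all pairs, wider and narrower, fold enrichment and -log10 p differed in direction. The fold enrichment was lower in GSK in 63.7% of pairs, with a median GSK to Veh ratio of 0.961, while the -log10 p was higher in GSK in 59.5% of pairs. Both values belong to whole peak regions, so they are not independent of the width. Both edges of the pairs moved out, the left one by a median of 29 bp and the right one by 30 bp. In 9862 pairs, or 33.5%, the Veh peak lay wholly inside the GSK peak, and in 4176 pairs, or 14.2%, the GSK peak lay inside the Veh peak. In the other 52.3% the peaks were staggered. By place, the median difference was 66 bp in introns, 77 bp in promoters, 81 bp in intergenic regions and 84 bp in exons. When pairs were divided into 5 equal classes by mean width, it was 33 bp in the narrowest class and 106 bp in the widest.

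**Figure D2:**
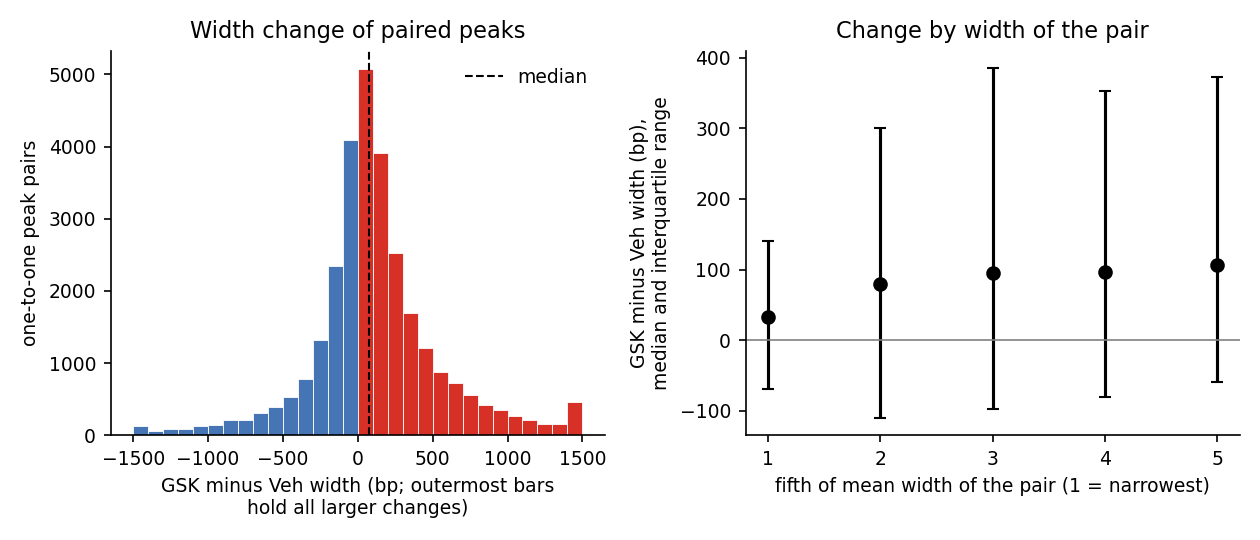
Left, number of one-to-one peak pairs (vertical axis) by GSK minus Veh width in bp (horizontal axis), red where GSK was as wide or wider and blue where it was narrower, with the median of 75 bp as a dashed line and all changes beyond the axis in the outermost bars. Right, median and interquartile range of the same difference in 5 equal classes of the pair's mean width, from 33 bp in the narrowest class to 106 bp in the widest.

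The 5 largest gains in width ran from 3057 to 3943 bp. Where the width changed, the fold and -log10 p of the 2 treatments belong to regions of unlike extent. They do not give the change at a fixed site. A Veh peak of 598 bp 61.7 kb from the TSS of Irf8, a transcription factor of effector T cells and myeloid cells, became 4541 bp in GSK, while its fold went from 3.56 to 2.44. A peak near Hmx2 went from 434 to 3808 bp and one near Olfr524 from 335 to 3559 bp. In an intron of Taok3, a kinase that supports T cell receptor signalling, the width went from 560 to 3770 bp. In an intron of Tap2, a peptide transporter for MHC class I, it went from 2379 to 5436 bp. The largest loss was in an intron of Nfatc2, a calcium-dependent transcription factor of activated T cells, from 3361 to 388 bp, with folds of 2.3 in Veh and 2.48 in GSK. A peak 12.8 kb upstream of a TSS of Thy1, a surface marker of T cells, went from 2670 to 317 bp, while its -log10 p went from 9.71 to 19.2. The others among the 5 largest losses went from 3035 to 294 bp in an intron of Macroh2a1, from 4292 to 1860 bp near Mmp9 and from 3106 to 695 bp in an intron of Prrc2b.

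Merging and splitting were rare, and splits were the more frequent of the 2. There were 230 GSK peaks that each joined Veh peaks, always 2 of them, and 294 Veh peaks that fell into several GSK peaks, which were 3 in 5 cases and 2 in the rest. Another 6 groups were mixed. Merges thus made 43.4% of the 530 multi-peak groups (39.2 to 47.7). The gap bridged had a median of 1248 bp in merges and the gap opened had one of 1204 bp in splits. No peaks of the same list lay closer than 1082 bp in Veh or 1057 bp in GSK, so shorter gaps could not be seen. A merged GSK peak had a median width of 2756 bp, and a split Veh peak one of 2560 bp.

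The widest merges included a locus of a T cell transcription factor. Near Runx3, which is needed for CD8 T cell identity, Veh peaks of chr4:135115043-135116747 and chr4:135118560-135119924 were joined in a GSK peak of 5558 bp with a fold of 2.33, centred 3.77 kb upstream of a TSS. The widest merge was 5646 bp, in an intron near Rab11fip4os1. Others were 5432 bp near Gpc1, 5130 bp in an intron of Kcnn4, a calcium-activated potassium channel of T cells, and 4921 bp near Znrf2. The Veh peaks that fell into 3 were near Cox4i1 (5403 bp), Oxsm (4799 bp), Tmem163 (4057 bp), Gm7334 (4041 bp) and Galnt2 (3954 bp). All 5 had a fold under 3 in Veh.

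By the median, new peaks lay about as far from old ones as neighbouring peaks of 1 list lay from each other. The median distance from a GSK-only peak to the nearest Veh peak was 8.55 kb, with an interquartile range of 3.51 to 20.9 kb. Of GSK-only peaks, 3.08% lay within 1 kb, 33.1% (32.2 to 34.1) within 5 kb and 4.70% beyond 100 kb. No GSK peaks lay closer together than 1057 bp, and most Veh peaks had a GSK partner. Few GSK-only peaks could therefore lie within 1 kb of a Veh peak. Veh-only peaks were nearer to the GSK list, with a median of 6.43 kb and 42.2% (40.8 to 43.7) within 5 kb, and the GSK list is also the denser one. As a scale, a shared Veh peak had its next Veh peak at a median of 8.86 kb, with 24.2% within 5 kb. For shared GSK peaks and the next GSK peak these values were 7.69 kb and 30.0%. For Veh-only peaks and the next Veh peak they were 9.33 kb and 28.3%. When both lists were held to a -log10 q of at least 5, the share of GSK-only peaks within 5 kb of a Veh peak was 19.2%.

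Enrichment and place varied with the distance. The median fold of GSK-only peaks was 3.35 within 1 kb of a Veh peak, 3.16 at 1 to 5 kb, 4.02 at 5 to 20 kb, 4.18 at 20 to 100 kb and 4.26 beyond. In Veh-only peaks it was 3.66, 3.38, 4.20, 4.46 and 4.54 in the same classes, so both lists were lowest at 1 to 5 kb. Of the 470 GSK-only peaks beyond 100 kb, 179, or 38.1%, lay in promoters, against 22.1% of those at 1 to 5 kb, 14.7% at 5 to 20 kb and 22.5% at 20 to 100 kb. Of the 123 Veh-only peaks beyond 100 kb, 33.3% lay in promoters.

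**Figure D3:**
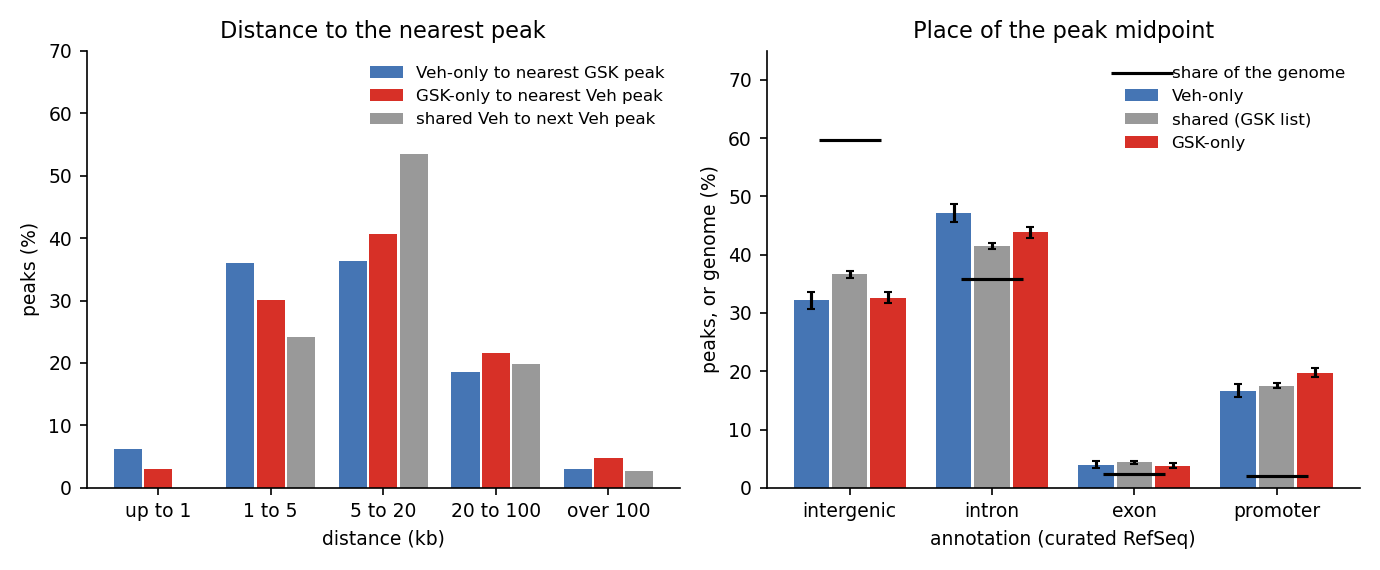
Left, percent of peaks by distance in kb to the nearest peak, for Veh-only peaks to the GSK list, GSK-only peaks to the Veh list and shared Veh peaks to their own list, in which 24.2% lay within 5 kb. Right, percent of peaks by place of the midpoint, with 95% Wilson intervals and the share of the genome as black marks, where promoters hold 19.8% of GSK-only peaks and 2.04% of the genome.

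By place, H3K4me1 peaks were more frequent in promoters, exons and introns than these are in the genome. Promoters, taken as 1 kb to either side of a TSS, make up 2.04% of the genome and held 17.6% of Veh and 18% of GSK midpoints. Intergenic regions make up 59.7% of the genome and held 35.9% of Veh and 35.6% of GSK midpoints. Of GSK-only peaks, 1977, or 19.8% (19.0 to 20.6), lay in promoters, against 17.5% (17.1 to 17.9) of shared GSK peaks and 16.7% (15.6 to 17.9) of Veh-only peaks. Introns held 43.8% (42.9 to 44.8) of GSK-only and 47.2% (45.7 to 48.7) of Veh-only peaks. With a promoter window of 2.5 kb, the promoter share of GSK-only peaks was 35.4%.

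Promoters gained the most ground in proportion. Covered bases went from 5.09 to 6.45 Mb in promoters, a ratio of 1.27, while the ratio was 1.21 in intergenic regions, 1.20 in exons and 1.19 in introns. Of GSK peaks in promoters, 27.2% (26.2 to 28.2) were GSK-only, against 22.7% (22.0 to 23.4) in intergenic regions. The median distance to the nearest TSS was 8.66 kb for GSK-only, 10.1 kb for Veh-only and 11.6 kb for shared peaks.

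Around promoters with H3K4me3, the difference in percent between GSK and Veh was largest 1 kb into the gene, within 5 kb of the TSS. At the 15509 TSSs with an H3K4me3 peak within 1 kb in both treatments, the share of sites inside an H3K4me1 peak was 14.4% in Veh and 20.0% in GSK at 1000 bp downstream, a ratio of 1.39. At the TSS itself it was 15.1% and 18.7%, a ratio of 1.24, and at 1000 bp upstream it was 12.1% and 15.8%. At 5000 bp downstream it was 3.42% and 4.15%, a ratio of 1.21, beside 1.21 for all covered bases. At the 15409 TSSs without H3K4me3 in either treatment, the share at the TSS was 5.04% in Veh and 6.56% in GSK.

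At distal LSD1 sites, H3K4me1 peaks were slightly more frequent in GSK, with or without an LSD1 peak in the other treatment. At the summits of 4545 distal Veh LSD1 peaks that a GSK LSD1 peak overlapped, 55.5% of sites were inside a Veh H3K4me1 peak and 59.0% inside a GSK one, a ratio of 1.06. At the 8273 distal Veh LSD1 summits without a GSK LSD1 peak it was 33.9% and 37.1%, a ratio of 1.09. At 5712 distal summits of GSK-only LSD1 peaks it was 25.8% and 29.7%, a ratio of 1.15. At the summits, all 3 ratios were below the 1.21 of all covered bases. At 5000 bp to the left of the same summits the ratios were 1.15, 1.34 and 1.22 in the same order. At 5000 bp to the right they were 1.34, 1.28 and 1.23. The difference in percent, GSK minus Veh, was larger at the summits, with 3.48, 3.20 and 3.89 points. At 5000 bp it was 0.660, 0.774 and 0.648 points to the left and 1.43, 0.713 and 0.683 to the right. The ratio and the difference thus ran in opposite directions.

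**Figure D4:**
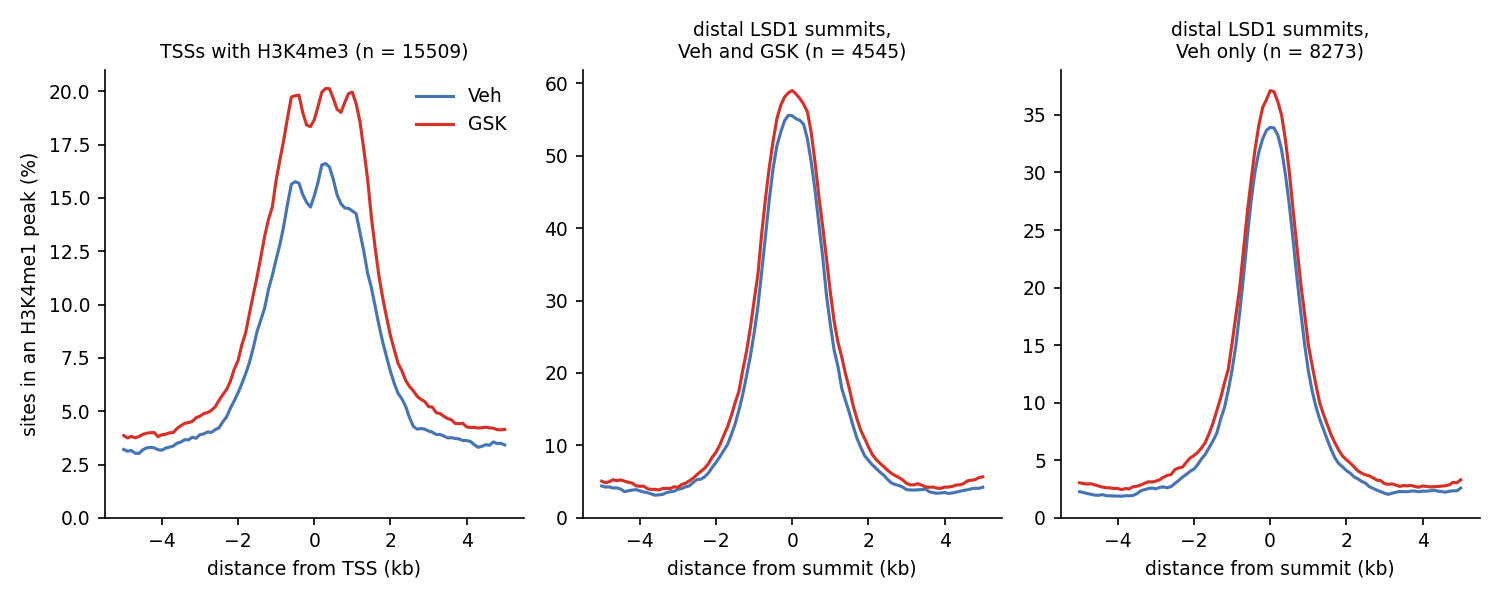
Percent of sites inside an H3K4me1 peak (vertical axes, each panel on its own scale from 0) by distance in kb from the TSS or LSD1 summit, for Veh in blue and GSK in red. The GSK line lay above the Veh line in all 3 panels, with 20.0% against 14.4% at 1000 bp downstream of TSSs with H3K4me3, and 37.1% against 33.9% at LSD1 summits of Veh alone.

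New peaks coincided less often with peaks of other antibodies than shared peaks did, and far more often in promoters than elsewhere. Of the 1977 GSK-only peaks in promoters, 41.7% (39.6 to 43.9) overlapped H3K4me2, 37.4% (35.3 to 39.5) H3K4me3 and 20.9% (19.2 to 22.7) LSD1 in Veh. In shared GSK peaks of promoters these shares were 69.7%, 57.2% and 39.4%. With the GSK lists they were 25.8%, 38.3% and 23.1% in GSK-only peaks. Outside promoters, 7.94% of GSK-only peaks overlapped H3K4me2 in Veh, 5.82% H3K4me3 and 6.66% LSD1. A Veh LSD1 peak overlapped 26.3% (25.9 to 26.8) of shared GSK H3K4me1 peaks, 9.47% (8.91 to 10.1) of GSK-only peaks and 7.10% (6.36 to 7.92) of Veh-only peaks. Wide, strong peaks are overlapped more often. Peaks outside promoters were therefore also set side by side at like -log10 p, but not at like width. From 7 to 10, the Veh LSD1 share was 21.6% (20.9 to 22.4) in shared GSK peaks, 7.99% (7.03 to 9.08) in GSK-only and 4.49% (3.4 to 5.90) in Veh-only peaks. A Veh H3K27ac peak overlapped 5.78% of shared GSK peaks and 0.980% (0.805 to 1.19) of GSK-only peaks. For RNA polymerase II in Veh the shares were 4.36% and 1.57%. For H3K4me3 in Veh they were 18.2% and 12.1%.

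H3K4me2, the state one methyl group above, was followed peak by peak, since LSD1 acts between both states. Of GSK-only H3K4me1 peaks, 819, or 8.19% (7.67 to 8.75), overlapped an H3K4me2 peak in Veh alone and 171, or 1.71% (1.47 to 1.98), one in GSK alone. Another 6.43% overlapped H3K4me2 in both, and 83.7% in neither. Veh-only H3K4me1 peaks gave much the same numbers, with 8.30% (7.50 to 9.17) in Veh alone and 1.20% (0.908 to 1.57) in GSK alone. In shared GSK peaks it was 13.5% (13.1 to 13.9) and 2.07% (1.92 to 2.24). H3K4me2 present in Veh alone thus outnumbered the reverse in every class of H3K4me1 peak. The H3K4me2 list itself held 15219 peaks in Veh and 9437 in GSK. The study lists fewer unique read pairs for the GSK than for the Veh H3K4me2 library. Depth and treatment therefore cannot be told apart in these counts.

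The X chromosome stood apart from the autosomes. It held 410 Veh and 539 GSK peaks, or 2.40 and 3.15 per Mb, while the autosomes ran from 9.60 per Mb in Veh and 11.2 in GSK on chromosome 3 to 22.6 and 26.1 on chromosome 11. On X, 26.1% (22.1 to 30.6) of Veh peaks were Veh-only, against 10.4% to 14.7% over the autosomes. Likewise 43.8% (39.7 to 48.0) of its GSK peaks were GSK-only, against 23.1% to 27.7%. The ratio of GSK to Veh peaks was 1.31 on X and 1.15 to 1.20 on autosomes. X peaks were narrower, with medians of 585 bp in Veh and 594 bp in GSK against 825 and 846 bp. At a -log10 p of 7 to 10, 37.7% (31.1 to 44.8) of GSK peaks on X were GSK-only against 21% (20.4 to 21.6) on autosomes. In the Veh list these shares of Veh-only peaks were 21.3% (15.8 to 27.9) and 8.55% (8.11 to 9.01).

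Genes were then ranked by the new and lost peaks around them. A peak was given to the gene with the nearest TSS within 100 kb, which placed 9427 GSK-only peaks at 7014 genes and 3872 Veh-only peaks at 3336 genes, of 26089 genes in all. At 1578 genes there were peaks of both kinds. At least 5 GSK-only peaks were found at 43 genes (0.165% of all genes) and at least 5 Veh-only peaks at 2 genes (0.00767%). When the GSK list was cut to the Veh length these numbers were 10 and 12. Where a peak was instead given to each gene whose body it overlapped, they were 35 and 5. The 43 genes had a median of 13 GSK peaks, against 2 for all genes with a GSK peak, and a median length of 97.9 kb against 18.1 kb. They also held Veh-only peaks in 30 cases.

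Bcl2l11 and Foxp1 had the most GSK-only peaks, with 8 each. Bcl2l11 encodes BIM, which triggers death of activated T cells, and went from 16 peaks in Veh to 24 in GSK, with 1 Veh-only peak. Its GSK-only peaks lay from -76.3 kb to 83.7 kb of the nearest Bcl2l11 TSS. Their folds ran from 2.46 to 4.77 and their -log10 p from 5.70 to 10.23. The strongest of them lay at -30.9 kb, and 80.3% of the bases in its central window of 300 were marked as repeats. Each lay between 3.03 and 8.72 kb from the nearest Veh peak. No peak of another antibody overlapped 7 of them, and the peak at -76.3 kb was overlapped by LSD1 in GSK. With the GSK list cut to the Veh length 7 GSK-only peaks were left at Bcl2l11, and by gene body the count was 2.

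Foxp1, a transcription factor that holds T cells in quiescence, is a long gene with 35 Veh and 39 GSK peaks. It had 8 GSK-only and 4 Veh-only peaks, and so ranked high in both lists. The strongest of these was a GSK-only peak in an intron at -56.0 kb of the nearest TSS, where the fold was 5.18 and the -log10 p 11.8. With the GSK list cut to the Veh length the number of GSK-only peaks was 6.

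Aopep, Rybp, Dock10 and Sipa1l1 followed with 7 GSK-only peaks each. Rybp, a subunit of Polycomb repressive complex 1, went from 4 peaks to 11 with no Veh-only peak. All 7 of its new peaks were more than 12 kb from any Veh peak, with folds from 3.30 to 4.94 and -log10 p from 5.72 to 7.42. Aopep, an aminopeptidase gene, went from 12 to 19 peaks, also with no Veh-only peak. Its GSK-only peak at the promoter, 1379 bp wide with a fold of 3.66, was overlapped by LSD1, H3K4me2, H3K4me3 and RNA polymerase II peaks of both treatments. Sipa1l1, a regulator of Rap GTPases, went from 15 to 21 peaks and Dock10, a guanine nucleotide exchange factor, from 7 to 12. With the GSK list cut to the Veh length, the GSK-only counts were 5 at Rybp, 4 at Aopep and Sipa1l1 and 3 at Dock10. At a -log10 q of at least 5 in both lists they were 4 at Rybp, 3 at Aopep and 2 at Sipa1l1 and Dock10, and by gene body Rybp had 4.

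The genes with 6 GSK-only peaks that the ranking reached were Bach1, Bcor, Cyrib, Icos and Parp11. Parp11, an ADP-ribosyltransferase, went from 2 peaks to 8, including one at the promoter and one at 1.20 kb from it. Bach1, a transcriptional repressor, went from 6 to 11 and Bcor, a corepressor that binds BCL6, from 12 to 17. Cyrib, a regulator of RAC1, went from 19 to 23. Ccnd1, the G1 cyclin D1, had 5 GSK-only peaks and went from 2 to 7, with a new peak at its promoter of 1129 bp, 2.47-fold enrichment and a -log10 p of 5.14. Cyth1, an exchange factor for ARF GTPases that acts in integrin adhesion, went from 8 to 13, and A330074K22Rik from 7 to 12. With the GSK list cut to the Veh length, the GSK-only count was 3 at Parp11, 2 at Bcor, Cyrib, Ccnd1 and Cyth1, 5 at Bach1 and 4 at A330074K22Rik. By gene body it was 1 at Bach1 and Ccnd1, 2 at A330074K22Rik and 3 at Bcor and Cyrib. At a -log10 q of at least 5 it was 2 at Parp11 and Ccnd1 and 3 at Cyrib and Cyth1.

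Veh-only peaks were spread more thinly. Rbpj, the DNA-binding partner of Notch, had the most, with 6, beside 4 GSK-only peaks, and went from 14 peaks to 12. Its Veh-only peaks lay from -84.3 kb to 18.3 kb of the nearest TSS, and the strongest, at chr5:53542961-53544410, was 1450 bp wide, with 2.62-fold enrichment and a -log10 p of 11.2. Rplp1, a ribosomal protein gene, had 5 Veh-only peaks and 1 GSK-only peak and went from 11 to 7, the lowest balance of all genes. One of its Veh-only peaks lay 0.249 kb from the GSK-only one. Elmo1, Limk2, F13a1 and Gm15232 each had 4 Veh-only and 1 GSK-only peak. Ern1, which encodes the stress sensor IRE1, and Ndrg1, Clmp, 1110059E24Rik and Gm13872 each had 3 Veh-only peaks and no GSK-only peak. Aff1, Irf2bp2 and Rras2 had 4 Veh-only peaks beside 2, 3 and 5 GSK-only peaks.

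**Figure D5:**
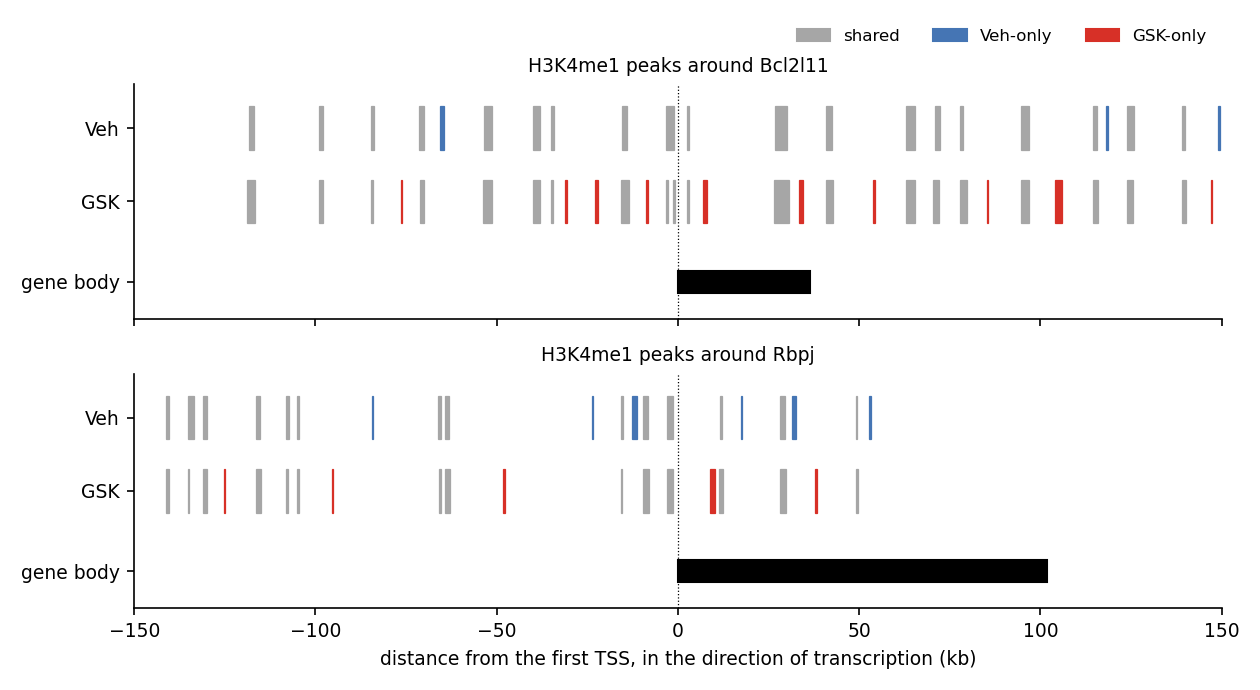
H3K4me1 peaks of Veh and GSK (rows) by distance in kb from the first annotated TSS of Bcl2l11 and Rbpj, in the direction of transcription, with shared peaks in grey, Veh-only in blue, GSK-only in red and the gene body in black. The 8 GSK-only peaks given to Bcl2l11 lay on both sides of the TSS, and the 6 Veh-only peaks given to Rbpj lay on both sides of its TSS. Peaks more than 100 kb from the nearest TSS, or nearest to another gene, are drawn but not counted for these genes.

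The gene lists chosen for T cells were next set beside all genes, where 25% of assigned GSK peaks were GSK-only and 12% of assigned Veh peaks were Veh-only. The lists hold 29 to 166 GSK peaks each, so their intervals are wide. The GSK-only share was lowest at inhibitory receptors, with 5 of 49 peaks, or 10.20% (4.44 to 21.8), and at effector and cytokine genes, with 10 of 64, or 15.6% (8.71 to 26.4). It was 19.8% (13.3 to 28.4) at memory and progenitor genes, 21.6% (13.8 to 32.3) at homing and adhesion genes and 21.7% (16.1 to 28.6) at T cell transcription factors. It was 23.9% (13.9 to 37.9) at the BCL2 family and 25% (17.0 to 35.2) at T cell receptor signalling genes. The highest shares were 29.9% (22.6 to 38.4) at cytokine receptors and STATs and 37.9% (22.7 to 56.0) at writers and erasers of H3K4 methylation. With the GSK list cut to the Veh length, the share was 6.98% at inhibitory receptors, 11.2% at memory and progenitor genes, 25.9% at cytokine receptors and STATs, 28% at the writers and erasers and 19.3% over all genes. At a -log10 q of at least 5 in both lists the order was another one, with 14.7% at inhibitory receptors, 28.9% at effector and cytokine genes, 30.2% at cytokine receptors and STATs, 44.4% at the writers and erasers, 38.5% at T cell receptor signalling genes, 32.7% at homing and adhesion genes and 31.6% over all genes. The Veh-only share ran from 4.84% at homing and adhesion genes to 14.3% at the writers and erasers.

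Of all 16186 genes with a peak, 36.7% had more GSK-only than Veh-only peaks, 11.9% had more Veh-only peaks and 51.5% had as many of each, and the counts of genes that follow are to be read against these shares. At inhibitory receptors, GSK-only and Veh-only peaks balanced at 6 of the 10 genes, near the share of all genes. Every peak was shared at Havcr2 (TIM-3), Entpd1 (CD39) and Tigit, with 6 peaks each, at Vsir (VISTA) with 4 and at Lag3 with 2. Ctla4 had 3 GSK-only peaks, between -51 and 21.9 kb of the nearest TSS, and went from 11 to 13 peaks. Cd160 and Cd244a had 1 GSK-only peak each, and Btla and Cd244a 1 Veh-only peak each. Pdcd1, which encodes PD-1, had 3 peaks in each treatment and 1 Veh-only peak, 4.89 kb from the TSS, where the fold was 3.47 and the -log10 p 7.20.

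Of effector and cytokine genes, 5 of 14 had more GSK-only than Veh-only peaks, near the 36.7% of all genes, and Gzmb had fewer. Fasl, the ligand that kills Fas-bearing cells, went from 15 to 18 peaks with 3 GSK-only peaks, of which the strongest had a -log10 p of 12.5. Ifng had 11 peaks in each treatment, with 2 of each kind. Gzmb, the protease granzyme B, went from 6 to 5. Among memory and progenitor genes, 7 of 15 had the balance toward GSK, beside 36.7% of all genes, and 4 of them by 3 peaks, which were Eomes, Foxo1, Il7r and S1pr1. Eomes, a T-box factor of memory CD8 T cells, went from 3 to 6 peaks, with new ones at -15.2, -1.59 and 4.23 kb of the nearest TSS, folds of 3.95, 3.18 and 2.64 and -log10 p from 5.82 to 6.46. The balance was toward Veh at Tcf7, Ccr7, Id3 and Klf2, by 1 peak each.

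Among T cell transcription factors, 14 of 20 had the balance toward GSK and 2 toward Veh, beside 36.7% and 11.9% of all genes with a peak. These genes had a median of 6.5 GSK peaks against 2 for all genes, and the part of peak number in the count was not tested. Ets1, Runx1 and Bcl11b each had 5 GSK-only peaks and 1 Veh-only peak. Ets1 went from 12 to 16 peaks, with one new peak at -0.114 kb of a TSS, Runx1 from 13 to 17 and Bcl11b from 14 to 18. The strongest new peak at Bcl11b, needed for T cell commitment, lay at -38.5 kb, with 6.2-fold enrichment and a -log10 p of 10.24. Batf and Ikzf1 had the balance toward Veh, by 1 peak each. Runx3 had 19 peaks in each treatment, of which 2 were Veh-only and 3 GSK-only.

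Among cytokine receptors and STATs, 13 of 21 genes had the balance toward GSK, beside 36.7% of all genes, and Il2ra, Il2rb and Stat4 toward Veh. Their median was 5 GSK peaks. Il15ra, the receptor chain that presents IL-15, had no H3K4me1 peak in Veh and 3 in GSK. The new peak at its promoter was 1782 bp wide, with 3.67-fold enrichment and a -log10 p of 6.69, and it was overlapped by LSD1, H3K4me2 and H3K4me3 of both treatments and by H3K27ac in Veh. The intronic peak printed above, 9.91 kb from the TSS, had 4.95-fold enrichment and a -log10 p of 7.99. Il7r, the receptor chain for IL-7, went from 6 to 9 peaks with 4 GSK-only peaks, 3 of them between -93.4 and -59.2 kb of the TSS. Stat5b, which carries the signal of IL-2 and IL-15, went from 3 to 6. Il2ra, the IL-2 receptor chain induced by activation, went from 6 to 4 with Veh-only peaks at -6.30 and 9.63 kb, and Stat4, which acts after IL-12, went from 6 to 4 with 3 Veh-only peaks in its introns.

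Of T cell receptor signalling genes, 9 of 17 had the balance toward GSK, beside 36.7% of all genes, and Cd6 toward Veh. Their median was 3 GSK peaks. Icos, a costimulatory receptor, had 6 GSK-only and 2 Veh-only peaks and went from 8 to 11. The strongest new one, at -17.1 kb, had 4.50-fold enrichment and a -log10 p of 7.87, and no peak of another antibody overlapped any of the 6. None of them overlapped the gene body, and the count was 4 with the GSK list cut to the Veh length and 2 at a -log10 q of at least 5. The neighbouring gene Cd28 went from 9 to 12 peaks. Cd8a went from 2 to 4 and Lck, the kinase that starts signalling, from 1 to 3. Among homing genes Itgae (CD103), an integrin of tissue-resident T cells, went from 3 to 7 with 4 GSK-only peaks, and Ccr7 went from 6 to 4.

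Of the 18 writers and erasers themselves, 3 had no peak in either list. Of the 15 with a peak, 5 had the balance toward GSK and 2 toward Veh. The share toward GSK was not above that of all genes. Kmt2c, an enhancer methyltransferase, had no peak in Veh and 3 in GSK, all in introns, with folds of 5.58, 4.45 and 4.28. Kmt2a went from 1 to 4 and Phf21a, a subunit of the LSD1 complex, from 2 to 4. Kdm1a, the gene of LSD1, had 2 peaks in each treatment, of which 1 was Veh-only and 1 GSK-only. In the BCL2 family the balance outside Bcl2l11 was toward GSK by 1 peak at Bcl2 and Bid and toward Veh by 1 at Bak1, while Bcl2l1, Bax and Bbc3 had no peak of either kind.

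The centres of the peaks differed slightly in sequence between classes. Mean GC content was 50.4% in shared GSK peaks, 48.4% in GSK-only and 47.4% in Veh-only peaks. The ETS motif was held by 15.1% (14.7 to 15.5) of shared GSK windows, 12.4% (11.8 to 13.1) of GSK-only and 13.3% (12.3 to 14.3) of Veh-only windows. The AP-1 motif (TGANTCA) was held by 11.7% (11.3 to 12.1), 9.91% (9.34 to 10.5) and 12% (11 to 13.0). The T-box motif was held by 8.42% (8.12 to 8.74), 9.05% (8.51 to 9.63) and 7.92% (7.14 to 8.77). The RUNX motif (TGTGGTT) was held by 11.4%, 10.4% and 10.3%, and the TCF motif (CTTTGAT) by 4.41%, 4.83% and 4.38%. Over all 40272 GSK windows the shares were 14.4% for ETS, 11.3% for AP-1, 8.58% for T-box, 11.2% for RUNX and 4.51% for TCF. Both strands were searched, and matches to different motifs shared bases in 0.603% of GSK windows. A match is a string of letters and not a bound site.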

How the data were processed

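ChIP-seq was carried out on CD8+ T cells with 6 antibodies and 2 treatments, and peak lists of 12 libraries were used. The 4 input samples were not analysed here. Bowtie2 alignments that were unique in mm10 were kept by the authors, who took out duplicates with Samtools and called peaks per library with MACS2 against input, with a stated p-value cutoff of 0.001, although −log10 q began at 3.01 in both deposited H3K4me1 lists. The deposited values are a fold enrichment (a ratio) and −log10 p and −log10 q values per peak. For signal comparisons the paper describes libraries reduced at random to equal read numbers, without saying whether MACS2 was run on these. Read numbers are not part of the lists, so depth was not computed.

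Peaks were compared by 1 bp overlap with Python 3.11.15, numpy 2.4.6, pandas 2.3.3 and scipy 1.17.1, and the overlap routines were tested on simulated peaks. Genes, TSSs (31510 of 26089 genes) and sequence came from curated RefSeq transcripts of GRCm38.p6. A midpoint within 1 kb of a TSS was a promoter, else exon, intron or intergenic. A shared peak can be assigned to different genes in the 2 lists, as its midpoint moves. Intervals are 95% Wilson intervals.

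The genes named were those with the most GSK-only or Veh-only peaks and the highest or lowest balance (10 each), those nearest the 5 strongest peaks of 1 list, the 5 merges and 5 splits with the most parts, then the widest, and the 5 largest width changes, and members of the lists. The members, gene lists, motifs and alternatives were chosen with earlier results of these data known. The windows printed for Icos and Il15ra and the genes named for runs of peaks were chosen after their values were seen. One gene of the B cell list and the sequence of one named peak are not reported here.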

Additional observations from a re-analysis of the deposited data

How the results depend on the processing

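The median width difference of one-to-one peaks was 77 bp at a −log10 q of at least 5 and with the GSK list cut to the Veh length. Joining peaks at most 500 bp apart could not change a value, as no peaks of a list were that close. Leaving out chromosome X, chosen after seeing the data, gave 88.0% with a partner in the Veh list and 24.6% without one in the GSK list, both within the intervals of the main values. Veh peaks with a GSK partner made 79.6% of the Veh list when at least 50% of the peak had to be covered, 82.5% at a −log10 q of at least 5, 80.8% with the GSK list cut to the Veh length by −log10 p and 88.6% with gaps of up to 1 kb allowed. The share of GSK peaks without a Veh peak was 35.8%, 31.6%, 19.1% and 24.1% in the same order. With the 20000 strongest peaks of each list, also chosen after seeing the data, these shares were 72.6% and 27.2%, and with the GSK list cut to the Veh length by fold the first was 75% and the second 25.1%. Merges made 37.2% of multi-peak groups at a −log10 q of at least 5 and 47.8% with lists of equal length. GSK-only peaks within 5 kb of a Veh peak made 19.2% and 34.6% under these settings. The promoter share of GSK-only peaks was 25.7% with any overlap of the window, 35.4% with a window of 2.5 kb and 21.2% with lists of equal length. Genes with at least 5 GSK-only peaks numbered 10 with lists of equal length and 35 by gene body, and genes with at least 5 Veh-only peaks numbered 12 with lists of equal length and 5 by gene body. The settings differ in the number of peaks or in the rule itself, and no other cause was tested. No paired analysis was possible because each treatment has 1 library, and for the same reason no library could be left out. The depth of the libraries limits how a weak peak found in 1 list can be read.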

Other observations

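GSK-only peaks sometimes followed each other along a chromosome with no shared GSK peak between them. Of such runs, 5481 held 1 peak, 1369 held 2 and 369 held 3. These counts are to be read against the overall shares, 24.8% GSK-only in the GSK list and 12.2% Veh-only in the Veh list. Runs also arise at such shares when peaks fall in any order. Whether the runs were longer than that was not tested. The longest held 8 peaks over 172 kb (chr8:123411262-123583115) near Afg3l1, with a highest −log10 p of 14.2. Runs of 7 lay near Gnb4, over 224 kb, and near Med30, over 765 kb. Veh-only peaks formed 70 runs of 3 and 8 runs of 4, and the longest held 5 peaks over 2473 kb near Ikzf2.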
